A study of Mus musculus with 2 samples.

Results

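Imprinted genes were examined in RNA-seq of distal forelimbs from E12.5 mouse embryos, the part of the limb bud that forms the digits. The genes were chosen by symbol from a list of 34 known imprinted mouse genes, of which 33 were listed in the deposited table among 23157 genes. The 34th, Kcnq1ot1, was not analysed here. By the expressed allele, 14 of the 34 are maternally expressed, 19 paternally expressed and 1, Gnas, gives products from either allele. By kind, 29 code for proteins and 5 are noncoding RNA genes.

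The study set a wild-type library against 1 from embryos with the allele HoxD Inv(TpSB1-Itga6), in which 2.4 Mb of chromosome 2 are inverted, and asked how genes respond when enhancers of the HoxD cluster are moved. The wild-type embryos (WT) carried no such allele, whereas the mutant embryos (Inv) were homozygous for it according to the study's methods. The strain of both is given as C57Bl6CBAF1, and each library was made from a pool of 3 pairs of forelimbs at E12.5. With 1 library per genotype there was no replicate, no difference below has a replicate check, and no test between the genotypes was possible.

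Imprinted genes are expressed mainly or solely from the allele inherited from one parent. Most lie in clusters, where DNA methylation set in the egg or the sperm marks an imprinting control region, and that mark governs several neighbouring genes, often together with a long noncoding RNA. Many of them act in growth of the fetus and the placenta, and several are switched on in mesodermal tissues such as muscle and cartilage precursors. Imprinting of some of these genes holds only in certain tissues, as for Ascl2, Copg2, Ddc, Dio3, Gnas, Kcnq1 and Ube3a. The table gives 1 value per transcript and library for both alleles together, so the parental origin of the reads was not measured.

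Each value is a read number scaled for the size of its library, called normalized reads here, and the transcripts of a gene were summed. The WT library held 9280660 reads and the Inv library 9466154. A log2 ratio of Inv over WT was taken with a pseudocount of 1, a scale on which genes with few reads show less change than their reads do. The 95% intervals are exact Clopper-Pearson intervals that cover counting error only, compare these 2 libraries rather than the genotypes, and are too narrow if reads were counted for more than 1 transcript. All 8 distal limb markers passed a minimum mean of 10 normalized reads, among them Hoxd13 (2292 in WT, 1503 in Inv), Hoxa13 (1098 and 1193) and the forelimb gene Tbx5 (1684 and 1935). In Inv, 3 of the 8 were higher and 5 lower (median log2 ratio -0.07), with Lhx2 at 1065 in WT and 791 in Inv. Hoxd13 is itself a target of the moved enhancers. Of 7 hindlimb and proximal limb markers 6 were lower in Inv (median log2 ratio -0.29), while Shox2 had 381 and 715. The tissue label of both samples is distal limb, although their titles read wtFL and invDFL, and a difference in dissection cannot be told apart from genotype. The pools differed in the sex of their embryos. Xist, transcribed from the inactive X chromosome of females, had 2640 normalized reads in WT and 12.8 in Inv, and 4 Y-linked genes together had 836 and 2785. Sex and genotype therefore cannot be told apart for any gene below. The summed level of 8 muscle genes was 995 in WT and 1636 in Inv, that of 7 cartilage genes 12963 and 15409, and that of 8 erythroid genes 28157 and 24191. Of the cartilage genes, 5 were higher in Inv and 2 lower. All 8 surface ectoderm genes (5495 and 4730 in sum) and all 6 endothelial genes (4320 and 4030) were lower in Inv. Sums were 898 and 956 for 6 macrophage genes, and 606 and 738 for 6 neuron and Schwann genes past the minimum. In pooled tissue, fewer cells of a type and less RNA per cell cannot be told apart.

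Of the 33 genes, 32 reached the minimum mean of 10. The exception was Ascl2, a transcription factor of the trophoblast, with 6 reads in each library. Of the 32, 23 were higher in Inv and 9 lower, against 7809 and 8947 of all genes, and the sign of Igf2, Grb10, Peg12 and Sgce, all near 0, turned with the scaling. Within 25% of the WT level were 21 of the 32, a description only, as the share over all genes was not computed. Of the 32, the 4 genes that were at least 2-fold higher in Inv were Meg3, Rian, Mirg and Rtl1, all from the Dlk1-Dio3 cluster on chromosome 12. Of these 4, Rtl1 passed the minimum only through the Inv library, with 9.11 normalized reads in WT and 54.3 in Inv. None of the 32 was lower by that factor. Over all 16756 genes past the same minimum, 3.99% were higher by that factor and 0.483% lower. At a 1.5-fold threshold, Zim1 and Dlk1 joined the 4 genes and again none was lower, against 9.41% of all genes higher and 2.04% lower. An exact binomial test on the reads, adjusted by the Benjamini-Hochberg method over all genes, called 12 of the 32 genes higher and 1, Copg2, lower, against 12.3% and 7.87% of all genes. That test compares these libraries, not the conditions, and it calls smaller differences in genes with more reads.

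**Figure D1:**
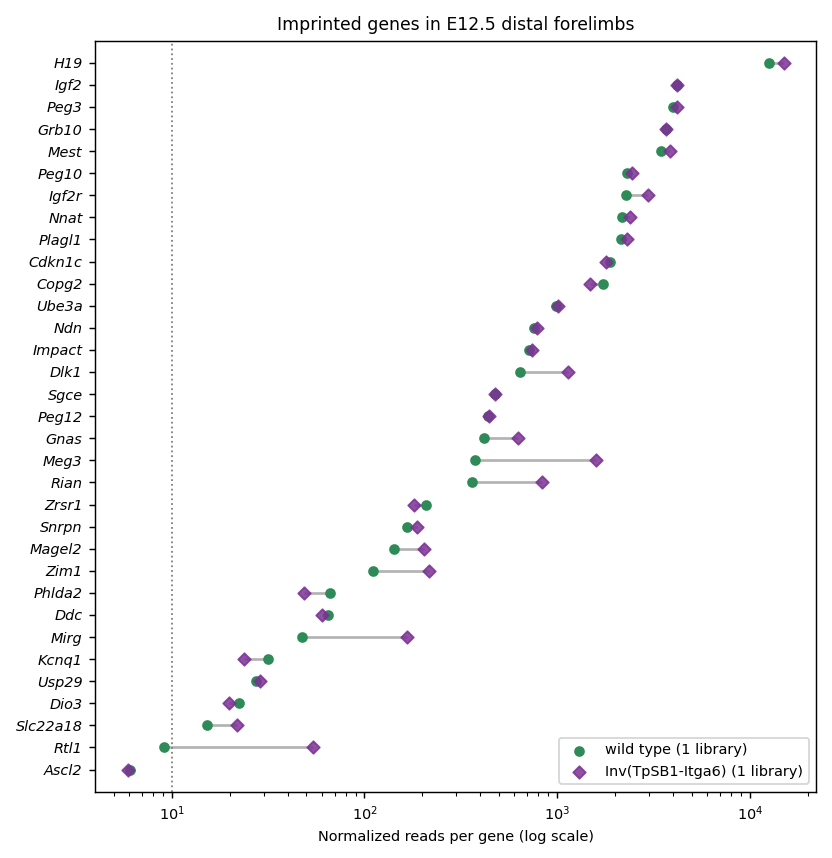
Normalized reads per gene on a log scale for the 33 imprinted genes, ordered by their level in WT. Circles are the WT library, diamonds the Inv library, and the dotted line marks 10 normalized reads. H19 leads both libraries with 12638 and 14978 normalized reads, and the long connecting lines belong to Meg3, Rian, Mirg, Rtl1, Dlk1 and Zim1.

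The cluster in which the differences lie spans 826.2 kb from the start of Dlk1 to the start of Dio3 (GENCODE M21, GRCm38). From the paternal allele it expresses the protein-coding genes Dlk1, Rtl1 and Dio3, and from the maternal allele a row of noncoding RNAs, namely Meg3, Rian and Mirg, which host snoRNAs and a large set of miRNAs. RefSeq places 58 miRNA hairpins with 114 mature entries between Dlk1 and Dio3, 54 of the hairpins on the plus strand, from which Meg3, Rian and Mirg are also transcribed. Rtl1 lies on the minus strand, and 6 hairpins of the plus strand lie opposite its GENCODE transcript (chr12:109589193-109600330), on a transcript of the maternal allele. Their 11 mature miRNAs are shown because they are complementary to the Rtl1 transcript, and a read at these sites belongs to Rtl1 or to the RNA opposite it according to its strand. Capitals mark the seed, bases 2 to 8, with which a miRNA recognises its targets.
miR-431-5p: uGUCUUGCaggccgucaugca
miR-431-3p: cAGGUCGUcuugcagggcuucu
miR-433-5p: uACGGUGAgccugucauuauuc
miR-433-3p: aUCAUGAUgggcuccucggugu
miR-127-5p: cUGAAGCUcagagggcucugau
miR-127-3p: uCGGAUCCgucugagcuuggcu
miR-434-5p: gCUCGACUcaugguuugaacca
miR-434-3p: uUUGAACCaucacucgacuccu
miR-432: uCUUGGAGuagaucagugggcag
miR-136-5p: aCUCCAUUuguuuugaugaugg
miR-136-3p: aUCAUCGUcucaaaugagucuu
No seed is shared among these 11. Across the whole cluster the mature entries carry 104 distinct seeds, and 9 seeds are shared by miRNAs of different names. A pair of this kind is shown here, with the seed GGUAGAC in common.
miR-379-5p: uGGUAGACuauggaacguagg
miR-1193-5p: uGGUAGACcggugacguaca

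Meg3, the long noncoding RNA at the head of the maternal transcripts, had 375 normalized reads in WT and 1591 in Inv, a log2 ratio of 2.08 (95% interval 1.92 to 2.25) or 4.25-fold. Among all genes tested this ratio lay at percentile 99.4. Each of its 10 transcripts was higher in Inv. The transcript with the most reads, ENSMUST00000146701 (chr12:109545398-109571726), went from 89.1 to 392.1, and the transcript ENSMUST00000129245, which begins at the annotated start of the gene (chr12:109541001-109545319), went from 75.9 to 324. Their log2 ratios ranged from 1.72 to 2.27.

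Rian, the host of the cluster's box C/D snoRNAs, had 363 normalized reads in WT and 833 in Inv (log2 ratio 1.20, 1.02 to 1.38). Mirg, the host of the distal miRNAs, had 47.6 and 166.9 (1.79, 1.34 to 2.31). All 3 noncoding RNAs were thus more than 2-fold higher in Inv, but not by one factor, as the ratio of Meg3 to Rian was 1.03 in WT and 1.91 in Inv.

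Among the paternally expressed genes of the cluster the values diverged. Dlk1, a transmembrane protein with EGF-like repeats that is related to the Notch ligands, had 638 normalized reads in WT and 1143 in Inv (0.84, 0.70 to 0.98), and 628 and 1118 over its 9 protein-coding transcripts (0.83). Meg3 over Dlk1 was accordingly 0.587 in WT and 1.39 in Inv. Rtl1, a gene derived from a retrotransposon and required in the placenta, had 9 reads in WT and 55 in Inv (2.45, 1.55 to 3.78), and passed the minimum only through the Inv library. The RefSeq gene of Rtl1 is longer (chr12:109564900-109604418), covers further plus-strand hairpins and overlaps Meg3 (chr12:109540996-109571729) and Rian (chr12:109603945-109661716). Whether the counting used the strand is not given in the sources used here, and without it reads of Rtl1 and of the plus-strand RNA opposite it cannot be told apart. Dio3, the type 3 deiodinase that inactivates thyroid hormone, lies at the far end of the cluster and had 22 reads in WT and 20 in Inv (-0.17, -1.12 to 0.77), an interval that would also allow a 1.5-fold difference in either direction. Together the 6 genes had 1454 normalized reads in WT and 3807 in Inv, a ratio of 2.62.

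**Figure D2:**
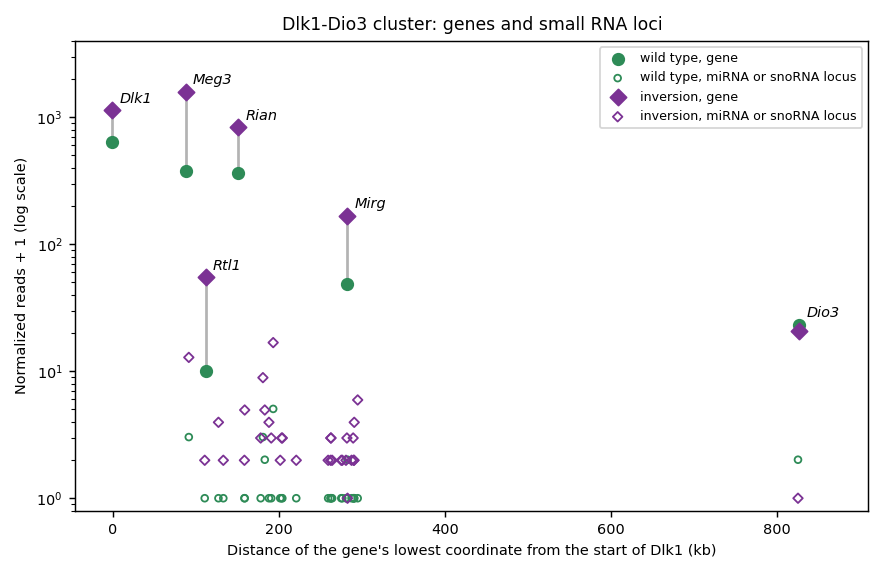
Normalized reads plus 1 (log scale) against the distance from the start of Dlk1 in kb, for the 6 genes of the Dlk1-Dio3 cluster (filled) and the miRNA and snoRNA loci listed between them (open). Circles are WT and diamonds Inv. The 5 genes from Dlk1 to Mirg are higher in Inv, and Dio3 at the right has 22.3 normalized reads in WT and 19.8 in Inv.

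Small RNA loci of the same stretch were counted from the same poly(A)-selected libraries, which hold fragments of host transcripts and precursors rather than mature miRNAs. Of 23 miRNA loci, 3 had reads in WT and 21 in Inv, with 4 reads in WT and 47 in Inv over all loci (ratio 11.5, 4.19 to 43.8). Over 216 miRNA loci elsewhere in the genome the reads were 1208 and 1537 (1.24, 1.15 to 1.34). The locus with the most reads was Mir1906-1, inside Meg3, with 2 reads in WT and 12 in Inv, followed by AC121784.5 with 0 and 5 and by Mir1188 with 0 and 4. RefSeq places the hairpin of miR-3072 inside AC121784.5. The mature sequences of these loci are shown as the miRNA loci with the most reads.
miR-1906: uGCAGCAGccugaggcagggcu
miR-3072-5p: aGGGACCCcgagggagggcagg
miR-3072-3p: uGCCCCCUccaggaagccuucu
miR-1188-5p: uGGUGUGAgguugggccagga
miR-1188-3p: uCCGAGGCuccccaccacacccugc
The cluster's 10 snoRNA loci were all higher in Inv, with 7 reads in WT and 41 in Inv (5.71, 2.54 to 15.1). The locus with the most reads was a copy of SNORD113, with 4 and 16. However, snoRNA loci outside the cluster were also higher in Inv, with 789 and 2435 reads over 347 loci (3.01, 2.78 to 3.27). A locus without reads in either library is not listed in the table, so a locus listed at 0 in WT had to be higher in Inv, and the counts of loci are given as a description.

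The promoters of Dlk1, Meg3 and Dio3 are shown because the intervals of Dlk1 and Meg3 lie above 0 while Dio3, on the same stretch of DNA, had too few reads to show a difference. Each window runs from 250 bases before to 50 bases after a RefSeq start on GRCm38.p6, plus strand, with CpG dinucleotides, the sites that DNA methylation can mark, in capitals.
Dlk1, chr12:109452573-109452872: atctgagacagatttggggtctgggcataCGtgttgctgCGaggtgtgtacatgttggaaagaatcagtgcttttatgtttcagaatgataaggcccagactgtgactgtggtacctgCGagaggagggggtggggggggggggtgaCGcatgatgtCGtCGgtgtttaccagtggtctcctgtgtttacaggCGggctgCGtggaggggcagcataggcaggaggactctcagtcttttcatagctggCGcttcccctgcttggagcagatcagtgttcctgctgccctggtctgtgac
Meg3, chr12:109540746-109541045: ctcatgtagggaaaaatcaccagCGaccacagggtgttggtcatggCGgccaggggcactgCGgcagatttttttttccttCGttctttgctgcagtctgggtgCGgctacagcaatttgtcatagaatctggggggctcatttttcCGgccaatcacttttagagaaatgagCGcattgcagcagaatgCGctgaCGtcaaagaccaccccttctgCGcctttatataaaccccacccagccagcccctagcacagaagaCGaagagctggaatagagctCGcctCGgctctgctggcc
Dio3, chr12:110278980-110279279: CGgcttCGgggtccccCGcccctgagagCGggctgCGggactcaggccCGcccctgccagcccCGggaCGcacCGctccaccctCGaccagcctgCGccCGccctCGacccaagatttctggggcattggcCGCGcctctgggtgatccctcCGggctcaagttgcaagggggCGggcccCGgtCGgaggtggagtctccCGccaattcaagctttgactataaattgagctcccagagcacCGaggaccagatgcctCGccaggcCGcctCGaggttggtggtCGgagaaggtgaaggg
The windows hold 9, 13 and 25 CpG. The median over 32851 mouse promoters is 7, and that over 41 promoters of 27 imprinted genes on the list, those matched by symbol, is 13. The motif TGCCGC, the methylated sequence that the imprint protector ZFP57 binds, was searched on both strands. It occurs 1 time in the Meg3 window shown, not in the windows of Dlk1 and Dio3, in 10 of the 41 promoters (24.4%) and in 11.6% of all promoters. Another Meg3 window (chr12:109545148-109545447), not shown, holds 1 CpG and lacks the motif. It covers the start of ENSMUST00000146701, the Meg3 transcript with the most reads. The motif itself holds a CpG, and the 41 windows have a higher median number of CpG than all promoters. Windows of a gene can also overlap, as those of Mest that start at 30737800 and 30737803 do. The shares are therefore not a like comparison. A match is a description of the letters and not a bound site.

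Noncoding and protein-coding genes of the list differed in their medians. The 4 noncoding genes had a median log2 ratio of 1.49 and the 28 coding genes a median of 0.06, with all genes at -0.02. Of the noncoding genes, 3 belong to the Dlk1-Dio3 cluster, and the remaining 1 is H19. By expressed allele, the 13 maternally expressed genes had a median of 0.25, with 8 higher and 5 lower in Inv, and the 18 paternally expressed genes a median of 0.07, with 14 higher and 4 lower. That order depended on 1 cluster. Without the Dlk1-Dio3 genes the median was 0.02 for 10 maternally expressed genes, 5 higher and 5 lower, and 0.06 for 15 paternally expressed genes. None of the remaining 26 genes was at least 2-fold changed, against 3.99% of all genes higher and 0.483% lower.

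**Figure D3:**
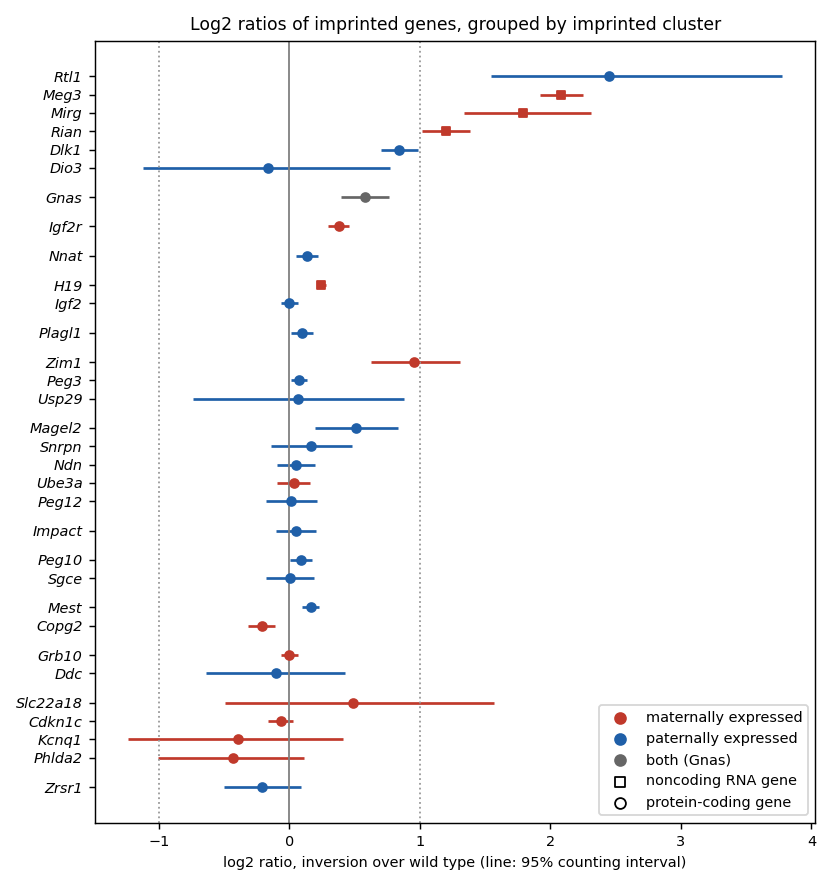
Log2 ratio of Inv over WT for the 32 genes past the minimum mean of 10, grouped by imprinted cluster. Lines are 95% counting intervals, dotted lines mark 2-fold, colours give the expressed allele and squares the noncoding genes. Outside the Dlk1-Dio3 cluster at the top, Zim1 is nearest to 2-fold, at 0.96.

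Several RNA classes were higher in Inv over the whole table, and their values stand beside those of the noncoding genes. Of 103 lincRNA genes past the minimum, 16.5% were at least 2-fold higher in Inv, against 3.26% of protein-coding genes, with a median log2 ratio of 0.19. Meg3 ranked 6th and H19 42nd of the 103 from the highest ratio. By transcript type, the median was -0.03 for protein-coding transcripts, 0.20 for transcripts with a retained intron, 0.24 for lincRNA, 0.33 for antisense transcripts and 1.47 for snoRNA, while it was -0.03 for miRNA loci, 0.00 for transcripts marked for nonsense-mediated decay and 0.04 for processed transcripts. Their part in the values of Meg3, Rian and Mirg was not tested. Muscle genes were also higher in Inv, 7 of 8 of them, with a median log2 ratio of 0.70 and none at 0 in either library (Myod1 138 and 170, Myog 157 and 265 normalized reads). Their part in these values was not tested.

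**Figure D4:**
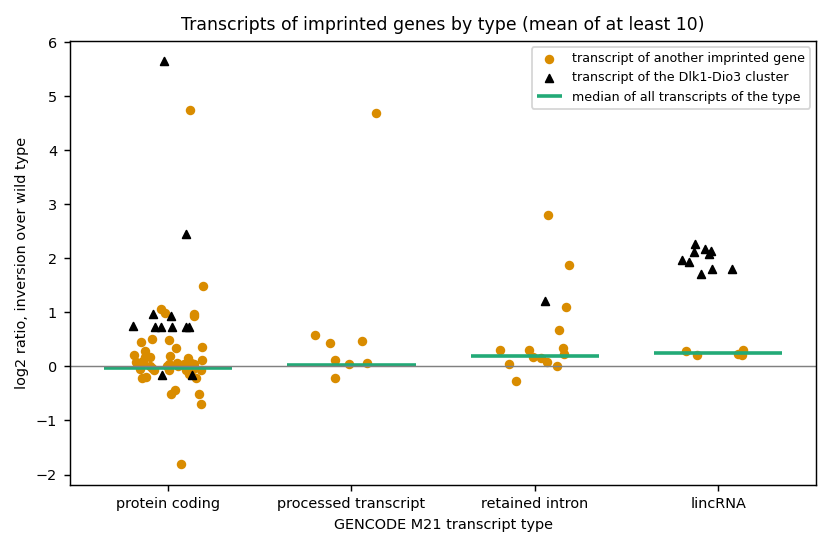
Log2 ratio of Inv over WT for single transcripts of imprinted genes past the same minimum mean, by GENCODE M21 transcript type. Bars are the medians of all transcripts of the type in the table, triangles the transcripts of the Dlk1-Dio3 cluster and circles those of other imprinted genes. The 10 lincRNA transcripts of Meg3 lie between 1.72 and 2.27, and the 5 of H19 between 0.21 and 0.30.

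In the cluster of Igf2 and H19 on chromosome 7 the levels were high and the differences small. Igf2, the fetal growth factor from the paternal allele, had 4201 normalized reads in each library (log2 ratio 0.00, -0.06 to 0.06). H19, the noncoding RNA expressed from the maternal allele (chr7:142575529-142578143), had 12638 in WT and 14978 in Inv (0.25, 0.21 to 0.28), with all 5 transcripts higher. H19 over Igf2 was 3.01 in WT and 3.57 in Inv. H19 alone took 0.134% of the WT reads (0.132% to 0.137%) and 0.160% of the Inv reads (0.158% to 0.163%), and the 33 genes together 0.495% and 0.568%. RefSeq places a miRNA hairpin in each gene, and their mature forms are shown as the miRNAs these transcripts host.
miR-675-5p, in H19: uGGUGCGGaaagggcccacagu
miR-675-3p, in H19: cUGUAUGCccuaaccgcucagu
miR-483-5p, in Igf2: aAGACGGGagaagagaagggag
miR-483-3p, in Igf2: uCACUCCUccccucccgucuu

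Igf2r, the maternally expressed receptor that carries IGF2 to the lysosome for breakdown, had 2278 normalized reads in WT and 2958 in Inv (0.38, 0.30 to 0.46). Nearly all of its reads fell on the coding transcript, with 2278 and 2933, while a processed transcript listed at 0 in WT had 25 reads in Inv. Grb10, an adaptor that restrains insulin and IGF receptor signalling, had 3693 and 3691 (0.00, -0.07 to 0.07). Ddc, its neighbour on chromosome 11 that makes dopamine from dopa, had 64.8 and 60.3 (-0.10, -0.64 to 0.42). Of 16 listed genes of the IGF axis, 13 passed the minimum, with a median log2 ratio of 0.01, 8 higher and 5 lower. None of the 13 was 1.5-fold changed, against 9.41% of all genes higher and 2.04% lower. Nearest to that threshold was Igf1, at 272 and 399 (0.55, 0.32 to 0.78). Irs2 had 938 and 718 (-0.38, -0.53 to -0.24) and Igfbp2 1171 and 946 (-0.31, -0.43 to -0.18). The genes of highest mean in this axis were Igfbp5 (3036 and 3053), Igfbp4 (2535 and 2560) and Igf2bp1 (2239 and 2251).

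The Kcnq1 cluster holds maternally expressed genes that restrain growth, among others. Cdkn1c, an inhibitor of cyclin-dependent kinases, had 1889 normalized reads in WT and 1802 in Inv (-0.07, -0.16 to 0.03). Phlda2, which limits growth of the placenta, had 65.8 and 48.4 (-0.44, -1.01 to 0.11). Kcnq1, a potassium channel, had 31.4 and 23.7 (-0.39, -1.24 to 0.41), and Slc22a18, a membrane transporter, 15.2 and 21.7 (0.49, -0.50 to 1.57), a ratio that turned to -0.55 when protein-coding transcripts alone were summed. All 4 intervals include 0, so no difference was detectable in these genes at this depth. The noncoding RNA Kcnq1ot1 runs through Kcnq1 on the opposite strand, and reads of the pair cannot be told apart if the strand was not used.

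In the Peg3 cluster, also on chromosome 7, the maternally expressed Zim1 had a larger ratio than the paternally expressed Peg3. The interval of Usp29, also paternally expressed, overlapped that of Zim1. Peg3, a zinc finger protein, had 3975 normalized reads in WT and 4179 in Inv (0.07, 0.01 to 0.14). Usp29, of the deubiquitinase family, had 27.3 and 28.6 (0.06, -0.74 to 0.88). Zim1, a zinc finger gene expressed from the maternal allele next to Peg3 (chr7:6671269-6696450), had 110 and 215 (0.96, 0.63 to 1.31), and its transcripts, both coding, had log2 ratios of 0.96 and 0.93. Peg3 over Zim1 was 36.0 in WT and 19.4 in Inv. Within Peg3 the coding transcript was at 3020 and 3109, whereas a transcript with a retained intron, ENSMUST00000155910, was at 15.2 and 112.6.

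The 4 genes of the chromosome 6 clusters were all within 25% of their WT levels. Peg10, whose protein derives from a retrotransposon gag and pol, had 2298 and 2440 normalized reads (0.09, 0.00 to 0.17), and its neighbour Sgce, which encodes epsilon-sarcoglycan, had 474 and 475. Mest, a hydrolase-like protein of mesoderm, had 3440 and 3853 (0.16, 0.10 to 0.23). Copg2, a coat protein subunit of transport vesicles that overlaps the end of Mest on the opposite strand (Copg2 chr6:30747554-30896794, Mest chr6:30733506-30748462), had 1720 and 1483 (-0.21, -0.31 to -0.11). It was the sole gene of the 32 with an interval wholly below 0. Mest hosts a miRNA whose mature forms are shown here.
miR-335-5p, in Mest: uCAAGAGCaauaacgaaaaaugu
miR-335-3p, in Mest: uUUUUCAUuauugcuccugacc

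In the Snrpn-Ube3a cluster of chromosome 7 all 5 genes were measured. Magel2, of the MAGE family, had 143 normalized reads in WT and 203 in Inv (0.51, 0.19 to 0.83). The others were near their WT levels, with Ndn, also of the MAGE family, at 758 and 786, Snrpn, a spliceosomal protein, at 166 and 187, Peg12, of the Frat family, at 436 and 440, and the ubiquitin ligase Ube3a, which is imprinted mainly in neurons, at 988 and 1010. These 4 intervals include 0.

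The list has 2 genes on chromosome 2, which carries the inversion, but far from it. Nnat, a small membrane protein, lies 82.9 Mb from the start of Hoxd13 and Gnas, which encodes the stimulatory G protein alpha subunit, 99.6 Mb. Nnat had 2168 normalized reads in WT and 2375 in Inv (0.13, 0.05 to 0.22), although its transcript with the highest mean had 443 and 427 (-0.05). Gnas had 417 and 623 (0.58, 0.40 to 0.76), with the coding transcripts at 300 and 426 and the other types at 117 and 197. Of the genes alone in their cluster on this list, Plagl1, a zinc finger transcription factor, had 2150 and 2299 (0.10, 0.01 to 0.18), Impact, a regulator of translation, 717 and 743 (0.05, -0.10 to 0.20) and Zrsr1, a retrogene related to a splicing factor, 208 and 180 (-0.21, -0.50 to 0.09).

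**Figure D5:**
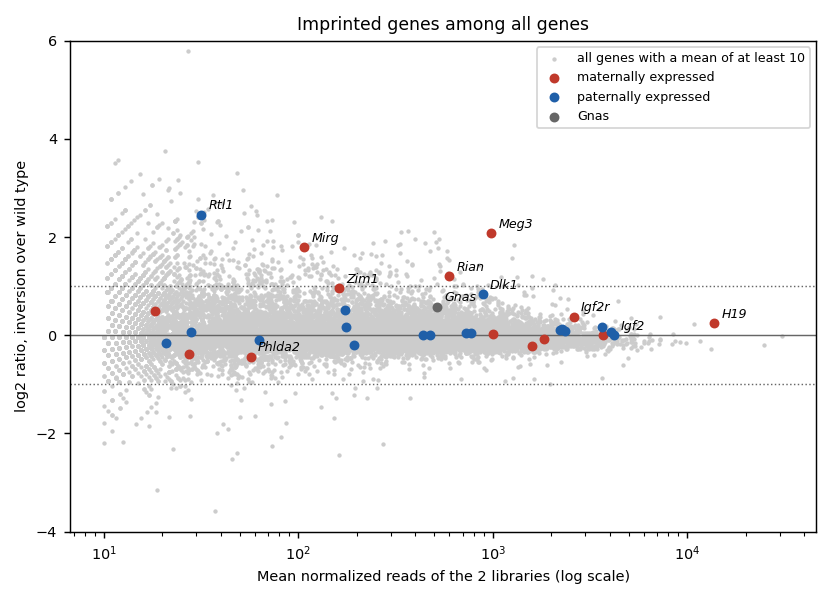
Log2 ratio of Inv over WT against the mean normalized reads (log scale) of the 16756 genes past the minimum in grey and of the 32 imprinted genes in colour. Dotted lines mark 2-fold. Meg3 (2.08) and Rian (1.20) lie at the upper edge of the grey points of like level, while Igf2 (0.00) and H19 (0.25) lie near the middle line.

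Levels can be compared between genes only per length, which was possible for 24 of the genes. Among these, as normalized reads per kb of transcript, H19 was highest with 9497 in WT and 11314 in Inv, followed by Nnat with 2281 and 2647. In WT the next in order were Cdkn1c (997), Grb10 (872), Peg3 (474) and Dlk1 (399), with Meg3 at 319. In Inv, Meg3 (1301) came next after Nnat, above Cdkn1c (951) and Grb10 (871), and Dlk1 (735) above Peg3 (508). Rtl1 was lowest in WT at 1.43 per kb and was at 8.54 in Inv. The 9 genes left out of this order for want of transcript lengths were Igf2, Mest, Plagl1, Copg2, Kcnq1, Slc22a18, Rian, Mirg and Ube3a. The matched transcripts of Mest alone had 2529 and 2916 per kb, above Nnat, and those of Igf2 1195 and 1238. A gene with many overlapping transcripts may be counted several times on this scale.

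Beyond the list, 43 further imprinted genes were examined, of which 36 were listed and 29 passed the minimum. Their median log2 ratio was -0.01, with 14 higher and 15 lower. The 2 genes at least 2-fold higher, against 3.99% of all genes, were Sfmbt2, a Polycomb-related gene (135 and 278 normalized reads), and Klf14 (9.11 and 37.5). Klf14 passed the minimum only through the Inv library. At least 1.5-fold higher were also Begain, a neighbour of Dlk1 on chromosome 12 (99.2 and 164), Airn, the noncoding RNA antisense to Igf2r (188 and 306), Nap1l5 (30.4 and 49.4), Ppp1r9a (609 and 966) and Nespas, antisense at the Gnas locus (25.3 and 39.5). Tspan32 was the single gene at least 1.5-fold lower (29.4 and 14.8). At 1.5-fold, 7 of the 29 genes were thus higher and 1 lower, against 9.41% and 2.04% of all genes. The further imprinted genes of highest mean were Nap1l4 (2833 and 2633), H13 (2210 and 2345) and Cd81 (1484 and 1540).

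Among factors that set or keep imprints, 1 differed at least 1.5-fold between the libraries, against 9.41% of all genes higher and 2.04% lower. Of 16 named, 13 passed the minimum, 5 higher in Inv and 8 lower, with a median log2 ratio of -0.01. Zfp57, the zinc finger protein that protects methylated imprints in the early embryo, had 813 normalized reads in WT and 1312 in Inv (0.69, 0.56 to 0.82), and was the sole gene of this group at least 1.5-fold changed. Its partner Trim28 had 7432 and 7079. The DNA methyltransferases Dnmt3a and Dnmt1 had 4807 and 4403, and 4072 and 3948, respectively. Below the 1.5-fold threshold, Tet2 had 588 and 806 (0.45, 0.30 to 0.61) and Smchd1 2616.5 and 2141 (-0.29, -0.37 to -0.21).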

How the data were processed

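RNA-seq of E12.5 distal forelimbs was analysed, 1 library per genotype. The authors made stranded, poly(A)-selected libraries, sequenced them as single-end reads and mapped them to NCBIM37 with the HTSstation pipeline, and the submitters' processing notes name Bowtie2. In the deposited signal columns the authors give each transcript's reads over a library size factor, with 0.5 for no reads, read here as 0. The study's methods name RPKM, whereas the values were independent of the length of a transcript. The deposited table also holds the authors' mean, fold change, log2 fold change, p-value and adjusted p-value, which were not used. Unmapped columns of per-sample values numbered 0.

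Of the values, 100% lay within 0.01 normalized reads of a whole number of reads. The 64053 transcripts were added up per symbol and chromosome. Log2 ratios used a pseudocount of 1 and a minimum mean of 10. Exact binomial intervals (95%) and a two-sided exact binomial test on the recovered reads, with an adjusted p threshold of 0.05, cover counting error between the libraries. The test called 2068 of 16756 genes higher and 1318 lower. With 1 library per genotype, no test of the genotypes was made.

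Positions, transcript types and lengths come from GENCODE M21 (GRCm38), matched by transcript identifier for 88.1% of transcripts (117 of 138 of the imprinted genes), and no coordinate was converted. Levels per kb are given where at least 80% of a gene's reads had a length. Rian and Mirg had no match, and their positions, like the miRNA and promoter sequences, come from RefSeq (GRCm38.p6). The genes and lists were chosen with earlier results of these data known. All imprinted genes of the list are named. From the other lists, genes past the minimum with a 1.5-fold difference and the 3 of highest mean are named, and of the limb, muscle and sex lists those that the checks turn on. Some genes of the IGF axis and of the imprint factors with smaller differences are also named, chosen after their values were seen. Transcripts named singly were chosen from genes with several transcripts after their values were seen. The steps were tested on simulated libraries. Alternatives were 2 other scalings, pseudocounts of 5 and 0.1, other minimums and thresholds, the transcript with the highest mean, and leaving out genes imprinted only in some tissues. The tools were scipy 1.17.1, pandas 2.3.3, numpy 2.4.6 and matplotlib 3.10.9 under Python 3.11.15.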

Additional observations from a re-analysis of the deposited data

How the results depend on the processing

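In the Dlk1-Dio3 cluster the 5 genes higher in Inv stayed higher under 2 scalings and 2 pseudocounts, with the transcript of highest mean (for Meg3, Rian, Mirg and Dlk1) and, for Dlk1, with protein-coding transcripts only. The noncoding genes have no such transcripts. The log2 ratio ranged from 2.07 to 2.12 for Meg3, from 1.06 to 1.21 for Rian, from 1.56 to 1.81 for Mirg, from 2.07 to 2.56 for Rtl1 and from 0.73 to 0.85 for Dlk1. Of 163 values of single genes, 160 stayed within the counting interval of the reported value. The exceptions were Nnat (-0.05257) and Grb10 (-0.197) with the transcript of highest mean, and Slc22a18 (-0.548) with protein-coding transcripts only. The scalings by total and by upper quartile moved all log2 ratios by 0.0075 and -0.0178.

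The counts of all genes at least 2-fold higher and lower, 668 and 81, became 1992 and 1089 without a minimum, 139 and 12 with a minimum mean of 100, 1577 and 341 at 1.5-fold, 113 and 13 at 4-fold, and 2068 and 1318 by the binomial test on reads. Of the changed genes, 89.2% were higher, against 64.7% without a minimum and 79.1% (415 and 110) with protein-coding transcripts only. Imprinted genes past the threshold numbered 4 higher and 0 lower, 3 higher with a minimum mean of 100, and 2 higher at 4-fold. By the binomial test they numbered 12 higher and 1 lower. The median of maternally expressed genes of 0.245 became 0.433 without genes imprinted only in some tissues, 0.138 without a minimum and 0.134 with the transcript of highest mean. The maternal minus paternal median, 0.177, became 0.353, 0.0699 and 0.083 under these settings. Without the Dlk1-Dio3 cluster the noncoding median became 0.245, the value of H19 alone, and the maternal minus paternal median turned to -0.0493. These 2 settings, that without the cluster and that with protein-coding transcripts only, were chosen after seeing the data. No paired analysis was possible because each genotype has a single library, and no library was left out. Depth limits genes with few reads, such as Dio3, Kcnq1, Usp29, Slc22a18 and Phlda2.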

Other observations

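Several imprinted genes had transcripts that differed between the libraries in opposite directions while the gene's sum moved by under 10%. These transcripts were picked after their values were seen, and how reads were divided among overlapping transcripts is not given in the sources used here. Grb10, whose sum was 3693 normalized reads in WT and 3691 in Inv, had the coding transcript ENSMUST00000109654 (chr11:11930508-12027971) at 1659 and 1447 (log2 ratio -0.20, -0.30 to -0.09) and the longer coding transcript ENSMUST00000093321 (chr11:11930508-12037401), which starts further upstream, at 1410 and 1600 (0.18, 0.08 to 0.29). Sgce, at 474 and 475 in sum, had the coding transcript ENSMUST00000126151 at 47.6 and 12.8 (-1.81, -2.90 to -0.98), while ENSMUST00000133306 had 0 reads in WT and 26 in Inv. In Nnat, ENSMUST00000173839 had 120.5 and 83.9 (-0.52, -0.94 to -0.11) and ENSMUST00000173793 57.7 and 116 (0.99, 0.53 to 1.48).

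Among transcripts of the Dlk1-Dio3 genes, ENSMUST00000124293 of Dlk1 was listed at 0 reads in WT and 50 in Inv, and ENSMUST00000166642 of Rian at 0 and 57. The remaining 8 coding transcripts of Dlk1 had log2 ratios between 0.72 and 0.97, and the other Rian transcripts 1.06 and 1.15. Over the whole table, 5133 listed transcripts had no reads in WT and 3181 had none in Inv. Reads in Inv alone were therefore not particular to these genes.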
